A study of Homo sapiens with 6 samples.

Results

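Mitochondrial ribosomal protein genes were taken as every protein-coding gene of GENCODE release 29 whose symbol begins with MRPL or MRPS followed by a number. This rule uses names and no measured value. It gave 78 genes among the 58735 genes of the deposited table, 49 with an MRPL and 29 with an MRPS symbol, on 21 chromosomes with at most 8 on one. All 78 were found by Ensembl identifier, and 77 had a mean level of at least 1 FPKM (fragments per kilobase of exon, scaled to library size) over all libraries and entered the test. The exception was MRPS24.

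The cells were HOK-16B, human oral keratinocytes immortalized with papillomavirus DNA. The cell line tag and title give this name for every sample, whereas the free-text description carries a different line number in each of the 6 samples. All were treated here as 1 line, and if they were not, the replicates would differ in line as well. According to the series design all libraries came from cells given an inflammatory stimulus, with CBD (cannabidiol, a compound of the cannabis plant) beforehand in 3 libraries and vehicle beforehand in the other 3. The labels name neither the stimulus nor a dose or time, and no unstimulated cells were analysed here, so each difference below is CBD minus vehicle in stimulated cells. Nothing in the labels states that replicates were grown as separate cultures. A p-value here therefore reflects no more than the scatter among these libraries, part or all of which may be technical.

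Mitochondria carry their own ribosomes, which translate the few proteins encoded in the mitochondrial genome, all of them membrane subunits of the respiratory chain and the ATP synthase. The ribosomal RNAs come from that genome, whereas every protein of the particle is encoded in the nucleus, made in the cytosol and imported. Some of these proteins descend from bacterial ribosomal proteins, and others exist in mitochondria alone. A few MRPS genes encode proteins of the large subunit, namely MRPS30 and MRPS18A, and MRPS36 is now assigned to the 2-oxoglutarate dehydrogenase complex, so the members comprised 51 large subunit genes, 26 small subunit genes and MRPS36.

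Promoters of these genes are known for binding sites of the ETS factor GABP and of NRF1, both general activators of nuclear genes for mitochondrial proteins. RefSeq promoter windows (GRCh38.p14) were matched for 69 of the 78 genes, in 85 windows, and the 250 bases upstream of each start were searched on both strands. The ETS/GABP letters CCGGAAG or their reverse complement occurred in 27 of 85 windows, 31.8%, against 10.7% of protein-coding and 8.52% of all promoters of the same length. The NRF1 letters, GCGCA and GCGC with any single base between them, were found in 11.8% of the windows, against 6.56% of protein-coding and 5.07% of all promoters, and the YY1 letters AAGATGGCG in 3.53%, against 0.748% and 0.652%. The E-box CACGTG occurred in 9.41% and 7.37% of member and protein-coding windows, and the CRE letters TGACGTCA in 1.18% and 2.01%. No motif contains another, although the end of the ETS/GABP letters can form the start of the YY1 letters. A match describes letters and not a bound site. The 120-base stretches below each lie upstream of a RefSeq start and outside GENCODE exons. They are shown for genes that recur in the results and for MRPL17, which averaged 19.7 FPKM in vehicle and 20.6 in CBD. Of these genes 3 had lower values in CBD and a match, and 2 had overlapping groups and a match. The other 2 had no match, of which MRPL50 was lower and MRPL55 higher in CBD. Capitals mark the motif letters, read on either strand. The stretches are chr3:131502984-131503103 (minus strand) for MRPL3, chr3:139343836-139343955 (plus) for MRPS22, chr13:40771191-40771310 (minus) for MRPS31, chr6:43687792-43687911 (minus) for MRPS18A, chr11:6683402-6683521 (minus) for MRPL17, chr9:101398619-101398738 (minus) for MRPL50 and chr1:228109313-228109432 (minus) for MRPL55.
MRPL3: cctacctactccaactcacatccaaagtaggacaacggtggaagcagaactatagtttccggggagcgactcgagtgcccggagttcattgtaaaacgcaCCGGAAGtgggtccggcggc
MRPS22: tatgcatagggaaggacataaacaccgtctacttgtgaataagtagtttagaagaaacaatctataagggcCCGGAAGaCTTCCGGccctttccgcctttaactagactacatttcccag
MRPS31: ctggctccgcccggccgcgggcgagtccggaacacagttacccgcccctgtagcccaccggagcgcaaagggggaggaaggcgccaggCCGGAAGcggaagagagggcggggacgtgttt
MRPS18A: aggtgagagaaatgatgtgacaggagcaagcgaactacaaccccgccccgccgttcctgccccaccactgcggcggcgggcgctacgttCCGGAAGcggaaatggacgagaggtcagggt
MRPL17: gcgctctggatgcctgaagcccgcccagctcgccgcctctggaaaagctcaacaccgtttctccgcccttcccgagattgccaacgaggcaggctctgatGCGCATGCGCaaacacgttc
MRPL50: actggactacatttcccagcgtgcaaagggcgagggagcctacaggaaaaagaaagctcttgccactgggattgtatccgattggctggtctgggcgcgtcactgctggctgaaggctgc
MRPL55: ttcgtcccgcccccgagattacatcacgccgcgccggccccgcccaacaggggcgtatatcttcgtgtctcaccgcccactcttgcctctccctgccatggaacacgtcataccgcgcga

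The ETS/GABP letters began 32 bases before the start in both MRPL3 and MRPS31 and 31 bases before it in MRPS18A, while MRPS22 held a forward and a reverse copy separated by a single base. Matches occurred among members of either direction. An ETS/GABP match was present in 4 of 9 windows of members with all CBD values above all vehicle values, in 8 of 25 windows of those with all CBD values below, and in 15 of 51 windows of those whose groups overlapped. Windows are not separate genes, since overlapping windows of MRPL47 and of MRPS22, both lower in CBD, hold the same matches. By gene, 25 of the 69 matched members had an ETS/GABP match in any window.

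Sequencing depth was similar in all libraries, at 18213784 to 21200871 fragments in genes for vehicle and 19010494 to 22158614 for CBD. Vehicle replicate 1 stood apart: across tested genes its correlation with the other libraries was 0.971 to 0.983, against 0.982 to 0.991 among the others, and its counted fragments had the lowest mean transcript GC content, 49.6%, against 49.985% and 50.3% in the other vehicle libraries and 50.7% to 50.8% in CBD. The cells carried the label's markers, with 10 of 10 keratinocyte markers above 1 FPKM and KRT5, a basal keratin, at 3104 FPKM in vehicle and 3556 in CBD. Of fibroblast markers 1 of 6 (COL1A1, 7.13 and 8.69 FPKM) reached 1 FPKM, of immune markers 1 of 4 (CD14), of melanocyte markers 1 of 3 (PMEL, mean 1.04) and of endothelial markers 0 of 3, and CD3E and TYR were listed at 0 in every library.

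The members formed a moderately expressed family. Their median level was 13.8 FPKM, 57 of 78 averaged at least 10 FPKM and 67 lay between 5 and 50 FPKM. Together they summed to 1348 ± 24.97 FPKM in vehicle and 1353 ± 23.5 in CBD (SD, n = 3), or 0.337% to 0.354% of the fragments of a library. By library the sums were 1326, 1375 and 1343 FPKM for vehicle and 1369, 1363 and 1326 for CBD, so the groups overlapped in summed FPKM. The shares of fragments were 0.346%, 0.354% and 0.349% in vehicle and 0.344%, 0.343% and 0.337% in CBD. On that measure every CBD library was below every vehicle library, by a small margin, and the difference was not tested. In bulk RNA, the number of cells and the RNA per cell cannot be told apart.

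The highest level per exon length belonged to MRPS34, a mitochondrion-specific small subunit protein altered in some inherited respiratory chain defects, at a mean of 56.5 FPKM. It was followed by MRPL49 (46.3 FPKM), MRPL41 (45.6), MRPL14 (43.9), a conserved protein of the face between the subunits, and MRPL3 (43.2), a conserved protein of the large subunit core. The ranks depend on the length used. Rescaled to the length of the principal transcript, the order was MRPL37, MRPL49, MRPL3, MRPS15 and MRPS34, at 71.3, 70.7, 68.7, 65.4 and 60.5 rescaled FPKM, and over the 78 genes the levels on the 2 lengths had a Spearman correlation of 0.69, a description across genes that share libraries. Neighbours among the 5 highest overlapped in their ranges over the libraries. MRPL49 and MRPL41, for instance, ranged from 41.4 to 49.3 and from 38.4 to 51.4 FPKM. Library by library, MRPS34 was above MRPL49 in all but vehicle replicate 1, where they had 37.9 and 41.4 FPKM.

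At the low end stood MRPS24 (0.143 FPKM), MRPL46 (1.03), MRPL38 (1.13), MRPL53 (1.68) and MRPS17 (2.08), all proteins of the assembled ribosome. MRPS24 rested on 2 to 14 fragments per library, with 0.1005, 0.0349 and 0.215 FPKM in vehicle and 0.144, 0.232 and 0.130 in CBD. These values overlapped, and a fragment count that low does not show a difference. Each of the 5 lay partly inside exons annotated to another gene on the same strand: 85.7% of the principal transcript for MRPS24, 71.1% for MRPL46, 67.9% for MRPL38, 52.3% for MRPL53 and 31.6% for MRPS17. MRPS24 shares them with the readthrough gene URGCP-MRPS24, itself at 0.0279 FPKM. Across members 37 had no exonic overlap with any other gene and 41 had some, on the same strand for 16, and members with a larger same-strand share tended to lower levels (Spearman -0.41, 78 genes of the same libraries). How fragments in shared exons were counted is not given in the sources used here, and the part of the overlap in these low levels was not tested. MRPL12 had 68.2% of its principal transcript inside exons of AC139530.2 and a mean of 14.1 FPKM. Among the 78 genes it ranked 38 by exon length and 59 by principal transcript length. Its vehicle libraries ran from 4.81 to 16.1 FPKM.

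**Figure D1:**
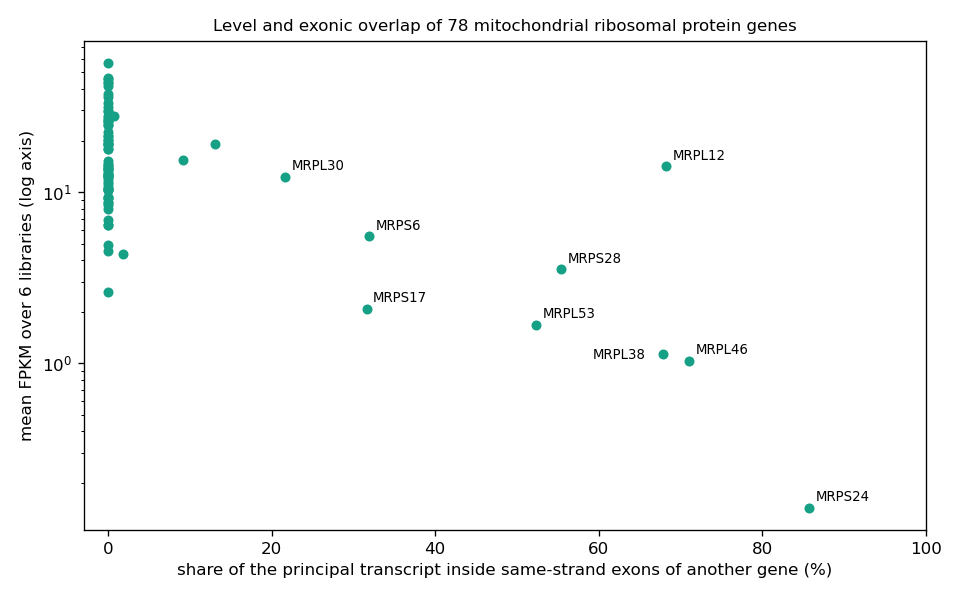
Mean FPKM over the 6 libraries (log axis) against the share of the principal transcript that lies inside same-strand exons of another gene, 1 point for each of the 78 genes, with names for those above 20%. The 5 genes of lowest level sit at 31.6% to 85.7%, while MRPL12 combines 68.2% with 14.1 FPKM.

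The comparison of CBD with vehicle asked how pretreatment altered gene expression in the stimulated keratinocytes. No mitochondrial ribosomal protein gene passed the test: 0 of 77 were higher and 0 lower at an adjusted p under 0.05 (limma with Benjamini-Hochberg adjustment over 12517 genes), against 0.256% and 0.0959% of all tested genes in those directions. The smallest adjusted p among members was 0.0558 (limma, MRPL50). At an unadjusted p under 0.05, 9 members were higher and 19 lower, or 36.4% of the members against a background of 31.4% of all genes, with 15.4% higher and 16.01% lower. All 3 CBD values lay above all 3 vehicle values in 10 members and below them in 22, where 18.7% and 21.9% of all genes did so. The median difference was -0.02 on the log2(FPKM + 1) scale, next to -0.01 for all tested genes, and members ranged from -0.39 (MRPL3) to 0.97 (MRPL12). The ratio of group means was within 10% of 1 in 35 members, more than 20% higher in CBD in 6 and more than 20% lower in 5. An exact permutation test of 3 against 3 libraries has 20 splits and cannot give a two-sided p below 0.1.

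The absence of calls depended on the fit. limma-voom on the fragments recovered from the FPKM values, which weights genes by their counts, called 4 members higher (MRPS34, MRPS26, MRPL57 and MRPL12) and 8 lower (MRPL3, MRPL42, MRPS22, MRPL19, MRPS35, MRPL47, MRPL50 and MRPL30), with 7.26% and 6.68% of all genes called. With genes of at least 5 FPKM the same limma fit called 2 and 6 members, with 5.87% and 4.19% of all genes called. With protein-coding genes alone it called 2 and 8, against 6.82% and 5.5%. Without vehicle replicate 2 it called 8 and 12, against 10.1% and 8.66%. MRPL3, MRPL19, MRPL30, MRPL47, MRPL50 and MRPS22 were lower in all 4 of these fits and MRPL57 was higher in all 4. MRPL19, MRPL30 and MRPL47 are named because of these calls, after their values were seen. The 4 fits reuse the same libraries and are those in which any member was called, so their agreement is not independent. The share of all genes called in all 4 was not counted.

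**Figure D2:**
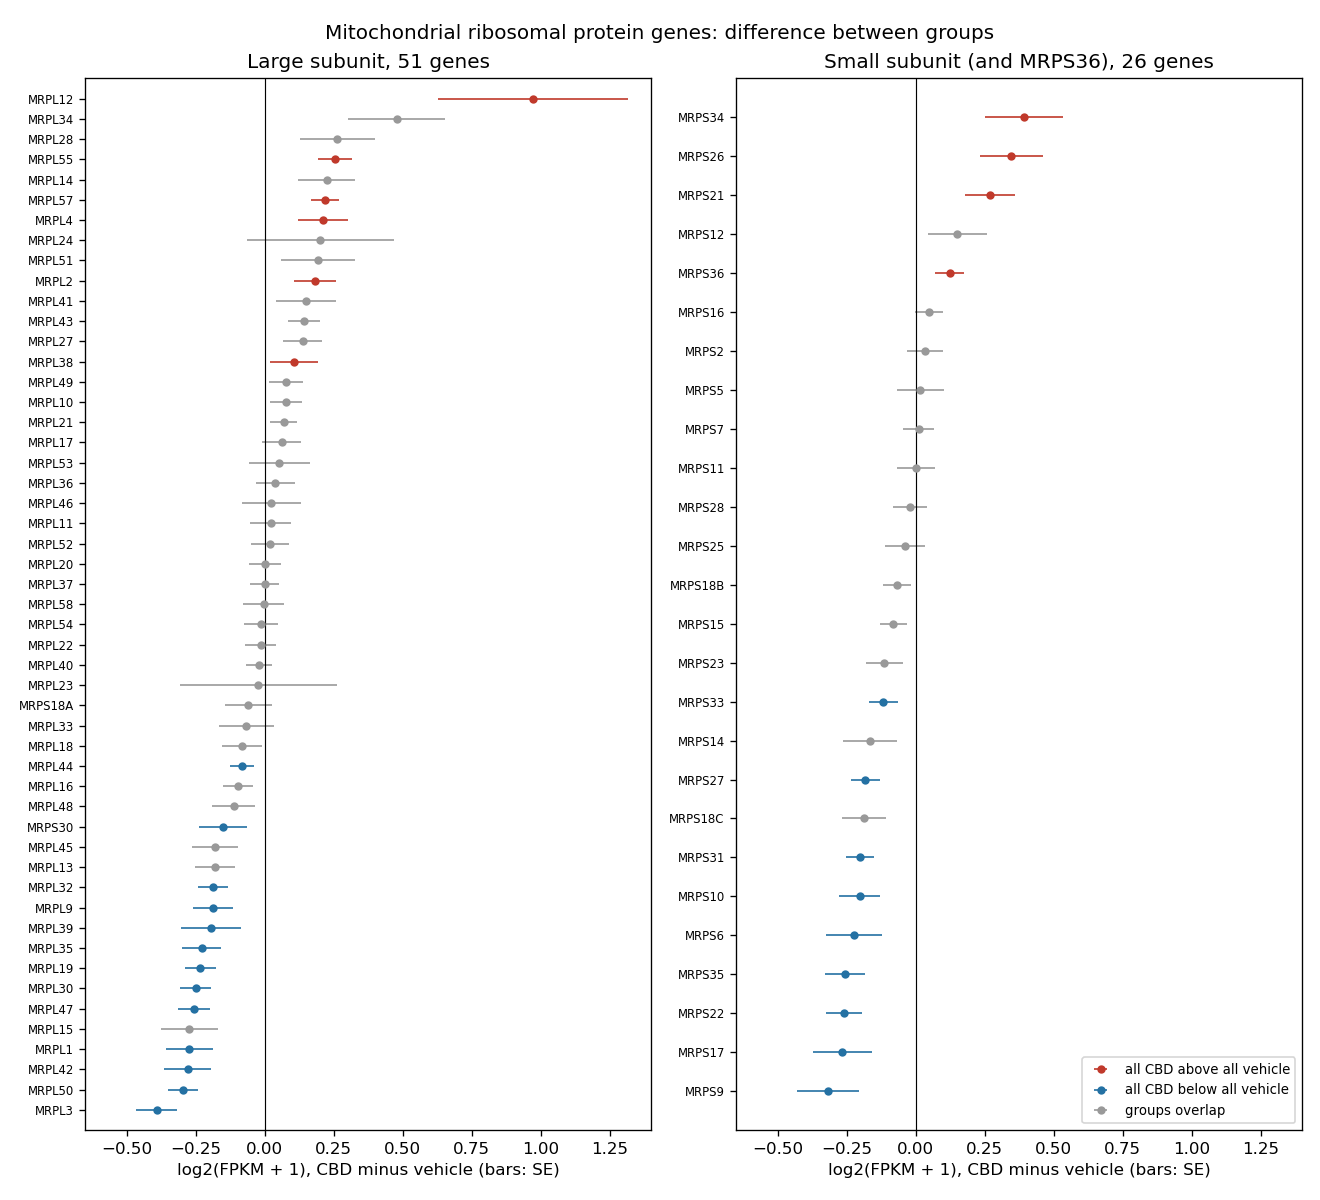
Difference between groups on the log2(FPKM + 1) scale, CBD minus vehicle, with its standard error from limma, for the 51 large subunit genes and for the 25 tested small subunit genes with MRPS36. Colour marks the 10 genes with every CBD library above every vehicle library, the 22 with every CBD library below, and the 45 whose groups overlap.

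Among members with lower values in CBD, MRPL3 had the largest difference. It measured 54.3, 44.6 and 48.8 FPKM in vehicle and 37.2, 37.9 and 36.3 in CBD. Every CBD library was below every vehicle library, and the CBD values lay close together. The difference was -0.39 ± 0.07 (SE) on the log2(FPKM + 1) scale, with an adjusted p of 0.0574 (limma), and the gene spans chr3:131462212-131502983 (GENCODE 29, GRCh38). Without vehicle replicate 1 the difference was -0.32.

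MRPL50, a mitochondrion-specific protein of the large subunit, had the smallest p of the family. Its values were 13.4, 12.6 and 13.8 FPKM in vehicle and 10.8, 10.2 and 10.8 in CBD. The groups were separated by more than the range within either, at a difference of -0.30 ± 0.05 (SE, log2(FPKM + 1)). It lies at chr9:101387633-101398614.

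MRPS22, a small subunit protein whose variants cause respiratory chain deficiency, read 12.7, 10.7 and 11.6 FPKM in vehicle and 9.46, 9.72 and 9.61 in CBD. No library of one group fell within the other, and the log2 difference was -0.26 ± 0.07 (SE), with an adjusted p of 0.0734 (limma). MRPS35, also mitochondrion-specific and small subunit, gave 31.7, 29.9 and 26.7 FPKM in vehicle against 25.1, 23.2 and 24.98 in CBD, with a log2 difference of -0.26 ± 0.07 (SE). MRPS31, a further small subunit protein, had 10.01, 9.65 and 10.2 FPKM in vehicle and 8.92, 8.32 and 8.33 in CBD, again apart. In MRPS35 the lowest vehicle value, 26.7, was close to the highest CBD value, 25.1.

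Conserved proteins with a bacterial counterpart were among the lower members too. MRPS9, of the small subunit head, measured 16.5, 11.9 and 13.8 FPKM in vehicle and 11.01, 11.8 and 10.2 in CBD. Its groups nearly met, since vehicle replicate 2 and CBD replicate 2 differed by less than 0.1 FPKM. Without vehicle replicate 1 its log2 difference of -0.32 became -0.20. MRPL1, of the mobile stalk beside the exit site for tRNA, had 15.05, 13.2 and 14.3 FPKM in vehicle and 13.1, 10.9 and 10.7 in CBD, where CBD replicate 1 almost reached the lowest vehicle library.

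Of the 8 largest negative differences among members without overlap between groups, the other 2 belonged to genes with low FPKM values. MRPL42, a mitochondrion-specific large subunit protein, had 5.58, 4.56 and 4.38 FPKM in vehicle and 3.65, 3.95 and 3.79 in CBD. Its exons cover 16393 bases, and these values came from 1281 to 2091 fragments per library. MRPS17, a conserved small subunit protein, had 2.29, 2.13 and 2.67 FPKM in vehicle and 1.90, 2.04 and 1.46 in CBD, from 65 to 113 fragments per library. Both kept their groups apart by a small margin, with log2 differences of -0.28 ± 0.09 and -0.27 ± 0.11 (SE).

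On the higher side MRPL12 had the largest difference and the largest spread. It encodes the stalk protein of the large subunit that recruits translation factors, and lies at chr17:81703357-81707526. It measured 4.81, 16.1 and 8.68 FPKM in vehicle, a coefficient of variation of 58.3%, and 19.2, 18.9 and 17.1 FPKM in CBD, one of 6.08%. All CBD libraries were above the vehicle libraries, but vehicle replicate 2 came within reach of CBD replicate 3. The ratio of means was 1.86 and the log2 difference 0.97 ± 0.34 (SE), with an adjusted p of 0.116 (limma). Without vehicle replicate 1 the difference was 0.59, and without vehicle replicate 2 it was 1.37, with an adjusted p of 0.0225 (limma).

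MRPS34 measured 37.9, 57.8 and 51.7 FPKM in vehicle and 64.7, 64.8 and 62.0 in CBD. MRPS26, another mitochondrion-specific small subunit protein, measured 27.2, 38.1 and 34.1 FPKM in vehicle and 43.3, 41.9 and 40.8 in CBD. In both genes vehicle replicate 1 was the lowest library and the CBD libraries lay within a narrow band above the vehicle ones. The log2 differences were 0.39 ± 0.14 and 0.35 ± 0.11 (SE), and 0.22 in either gene without vehicle replicate 1.

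MRPL57, a short mitochondrion-specific large subunit protein, had a smaller difference with a tighter spread. It read 16.6, 16.7 and 15.9 FPKM in vehicle and 18.9, 20.3 and 18.6 in CBD. The gap between the groups exceeded the range within vehicle, with a log2 difference of 0.22 ± 0.05 (SE), an adjusted p of 0.0672 (limma) and 0.23 without vehicle replicate 1. MRPL55, a conserved large subunit protein, stood at 11.5, 12.5 and 10.8 FPKM in vehicle and 13.5, 14.5 and 14.1 in CBD, again without overlap and with a log2 difference of 0.26 ± 0.06 (SE).

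The remaining 3 of the 8 largest positive differences among members without overlap were of conserved proteins. MRPS21, of the small subunit, had 20.2, 25.8 and 21.3 FPKM in vehicle and 28.3, 26.1 and 26.9 in CBD, so that vehicle replicate 2 and CBD replicate 2 were almost level. MRPL4, of the wall of the exit tunnel for nascent peptides, had 9.81, 12.3 and 11.7 FPKM in vehicle against 14.2, 13.1 and 12.4 in CBD, where the highest vehicle library nearly equalled the lowest CBD library. MRPL2, near the site of peptide bond formation, had 12.1, 14.4 and 14.3 FPKM in vehicle and 15.998, 14.6 and 15.96 in CBD, with the same near contact. Without vehicle replicate 1 the log2 differences of MRPL4 and MRPL2 were 0.12 and 0.11 in place of 0.21 and 0.18.

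**Figure D3:**
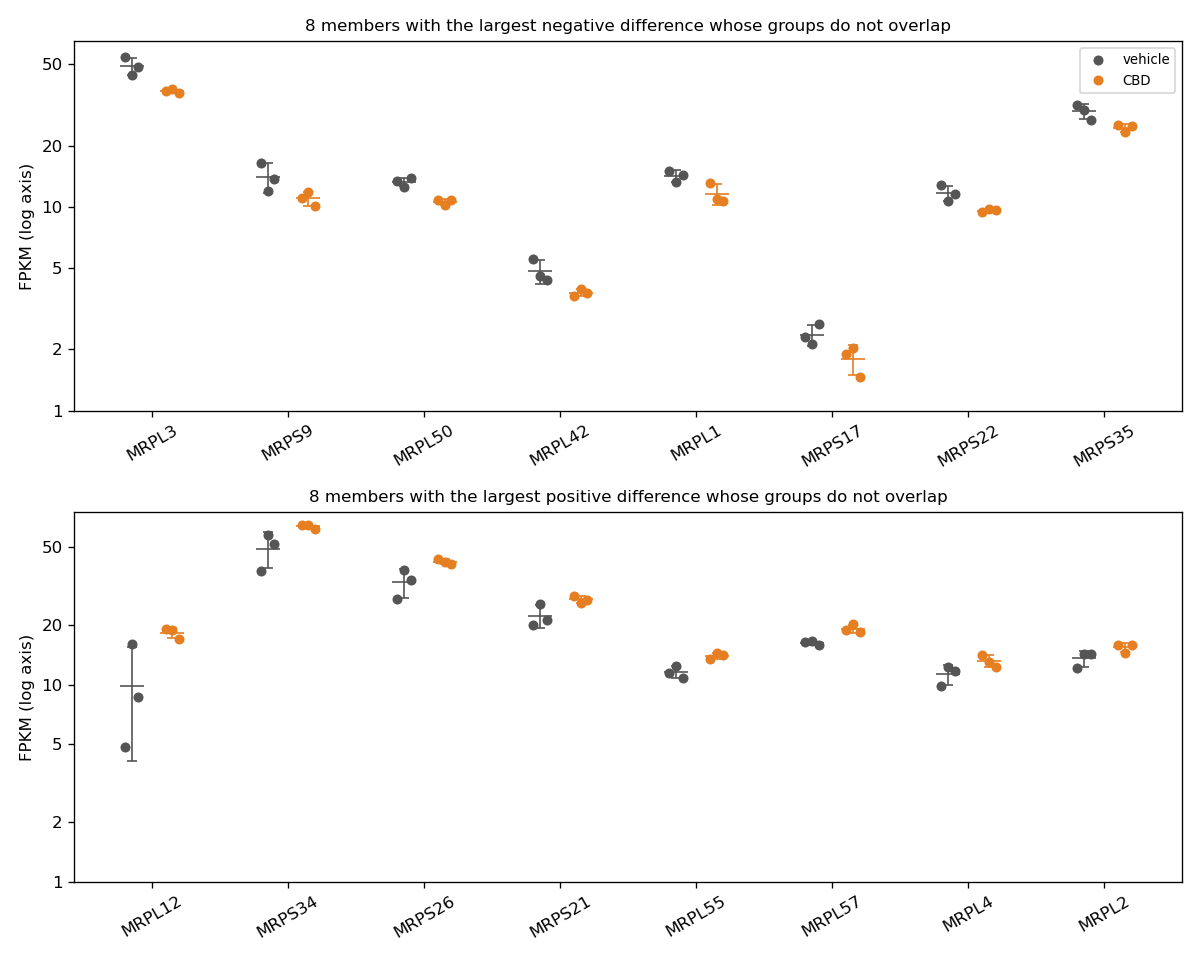
FPKM (log axis) in each of the 3 vehicle and 3 CBD libraries, with mean and SD, for the 8 members with the largest negative and the 8 with the largest positive difference among those whose groups do not overlap. MRPL12 spans 4.81 to 16.1 FPKM in vehicle, while its CBD libraries lie between 17.1 and 19.2.

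Members with set roles in the working ribosome are described next. MRPL11, at the base of the stalk on which MRPL12 sits, averaged 26.2 ± 2.56 FPKM in vehicle and 26.5 ± 0.873 in CBD (SD, n = 3). MRPL58, a peptidyl-tRNA hydrolase that frees stalled ribosomes, averaged 25.7 ± 1.74 and 25.7 ± 2.04 FPKM, and its log2 difference of -0.0034 ± 0.08 (SE) was among the smallest of the family. MRPL44, which has the fold of a double-strand RNA nuclease, averaged 20.7 ± 0.354 and 19.5 ± 0.441 FPKM, with all CBD libraries below and a log2 difference of -0.08 ± 0.04 (SE).

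MRPL23, at the mouth of the peptide exit tunnel, varied more than any shift between the groups. It had 5.68, 13.2 and 10.04 FPKM in vehicle and 7.52, 8.08 and 11.9 in CBD, which is a spread across both groups without order. MRPL28, a conserved large subunit protein, had 13.6, 20.9 and 17.8 FPKM in vehicle and 20.3, 21.1 and 21.1 in CBD. Vehicle replicate 1 was lowest there too, and its groups overlapped through vehicle replicate 2. Its log2 difference was 0.26, and 0.11 without vehicle replicate 1. MRPL41, a mitochondrion-specific protein, went the other way within vehicle, at 51.4, 40.3 and 38.4 FPKM, against 46.9, 50.7 and 46.1 in CBD.

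In the small subunit, MRPS12 and MRPS7 contribute to the decoding region and the path of tRNA. MRPS12 averaged 16.9 ± 2.61 FPKM in vehicle and 18.8 ± 0.948 in CBD, and MRPS7 24.6 ± 1.56 and 24.7 ± 0.405 (SD, n = 3). The conserved proteins MRPS2, MRPS15 and MRPS16 averaged 25.7, 23.2 and 27.4 FPKM in vehicle and 26.4, 21.9 and 28.4 in CBD. All 5 of these genes had overlapping groups, and their log2 differences lay between -0.08 (MRPS15) and 0.15 (MRPS12), the latter 0.03 without vehicle replicate 1. MRPS28 averaged 3.57 ± 0.239 and 3.50 ± 0.104 FPKM, again overlapping.

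Human cells have 3 genes related to a single bacterial small subunit protein, of which MRPS18A sits in the large and MRPS18B and MRPS18C in the small subunit. Their levels differed widely: MRPS18B averaged 32.2 FPKM in vehicle and 30.7 in CBD, MRPS18A 14.2 and 13.6, and MRPS18C 2.85 and 2.37. MRPS18C shares 40.2% of its exonic bases with ABRAXAS1 on the opposite strand, and whether the counting used strand is not given in the sources used here. All 3 had overlapping groups. MRPS18C had a log2 difference of -0.19 ± 0.08 (SE), MRPS18B of -0.07 and MRPS18A of -0.06, and with the trend in GC content removed, as described below, these were -0.03, -0.09 and -0.19. MRPS30, the other MRPS gene of the large subunit, averaged 8.94 ± 1.16 FPKM in vehicle and 7.92 ± 0.295 in CBD. Its groups nearly met, with a lowest vehicle value of 8.19 FPKM and a highest CBD value of 8.12. Its log2 difference was -0.15 ± 0.09 (SE), and -0.06 without vehicle replicate 1. MRPS36 averaged 9.94 ± 0.465 and 10.9 ± 0.325 FPKM, with all CBD libraries above vehicle, although its transcript has a low GC content of 40.1%.

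Members were also grouped by subunit and by origin. The 51 large subunit genes had a median log2 difference of -0.0034, with 6 at an unadjusted p under 0.05 higher and 12 lower, and the 25 tested small subunit genes a median of -0.08, with 3 and 7. The 45 tested genes with a bacterial counterpart had a median of -0.01, with 5 and 13, and the 29 mitochondrion-specific ones a median of -0.02, with 4 and 6. The shares at that threshold were 35.3%, 40.0%, 40.0% and 34.5%, near the 31.4% of all tested genes. No member was called in any of these groups by the limma fit of all libraries, and the difference between the groups was not tested.

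The differences followed the GC content of the members' transcripts. Among 28 members under 45% GC the median log2 difference was -0.20, and 16 were lower and 0 higher at an unadjusted p under 0.05, where 33.9% of all tested genes of that GC content were lower and 1.16% higher. Among 31 tested members from 45% to 55% the median was 0.0014, with 2 higher and 3 lower, against 7.68% and 10.4% of all such genes. Among 18 of at least 55% it was 0.17, with 7 higher and 0 lower, against 40.96% and 1.68%. All tested genes showed the same steps, with medians of -0.14, -0.01 and 0.17. Over the members the log2 difference and GC content had a Spearman correlation of 0.75, and over all 12510 genes with a GC value one of 0.67, which describes genes sharing the same 6 libraries. Without vehicle replicate 1 the correlation over members was 0.67.

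The place of vehicle replicate 1 in the vehicle range differed with GC content. Every gene has a highest and a lowest of the 3 vehicle libraries, so a place at an end is common for any library. It was the highest vehicle library in 21 of 28 members under 45% GC and the lowest in 9 of 18 members of at least 55%. In MRPL41 and MRPS18A, both of at least 55%, it was the highest. Over all members it was the highest in 30 and the lowest in 28. The matching shares of all genes were not counted. The median coefficient of variation of a member was 7.13% in vehicle and 4.56% in CBD, and 52 members varied more in vehicle. Without vehicle replicate 1 the members' median difference was -0.05, against -0.01 for all genes. In that fit limma again called 0 members, 7 were higher and 16 lower at an unadjusted p under 0.05, against 14.3% and 14.5% of all genes, and the 28 members at an unadjusted p under 0.05 with all libraries kept their sign.

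After a loess trend in GC content was removed from each library, the correlation over members was 0.19 and the spread of their differences narrowed from an interquartile range of 0.26 to 0.15 (log2). limma then called 0 of 77 members, and at an unadjusted p under 0.05 there were 4 higher and 8 lower, where 8.61% and 9.58% of all genes were. Of the 28 members at an unadjusted p under 0.05 before, 10 remained there and 0 changed sign. Among those with lower values, MRPL3 went from -0.39 to -0.30 and MRPS22 from -0.26 to -0.16, whereas MRPL50 went from -0.30 to -0.10, MRPL1 from -0.27 to -0.10, MRPL42 from -0.28 to -0.11 and MRPS31 from -0.20 to -0.04. MRPL19 went from -0.23 to -0.12, MRPL30 from -0.25 to -0.12 and MRPL47 from -0.26 to -0.10. Among the higher ones MRPL57 had 0.25 and MRPS21 0.29, both as large as before, while MRPS34 went from 0.39 to 0.16, MRPS26 from 0.35 to 0.12, MRPL55 from 0.26 to 0.08 and MRPL4 from 0.21 to -0.011. MRPL12 stood at 0.72, and at 0.39 when vehicle replicate 1 was left out as well. MRPS36 had 0.27 after the trend was removed, against 0.12 before. The mean transcript GC content, weighted by counted fragments, was higher in all 3 CBD libraries than in all 3 vehicle libraries. It comes from annotated transcripts and the same fragment counts, and is not a separate measure of GC-dependent yield. GC-dependent yield and group cannot be told apart.

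**Figure D4:**
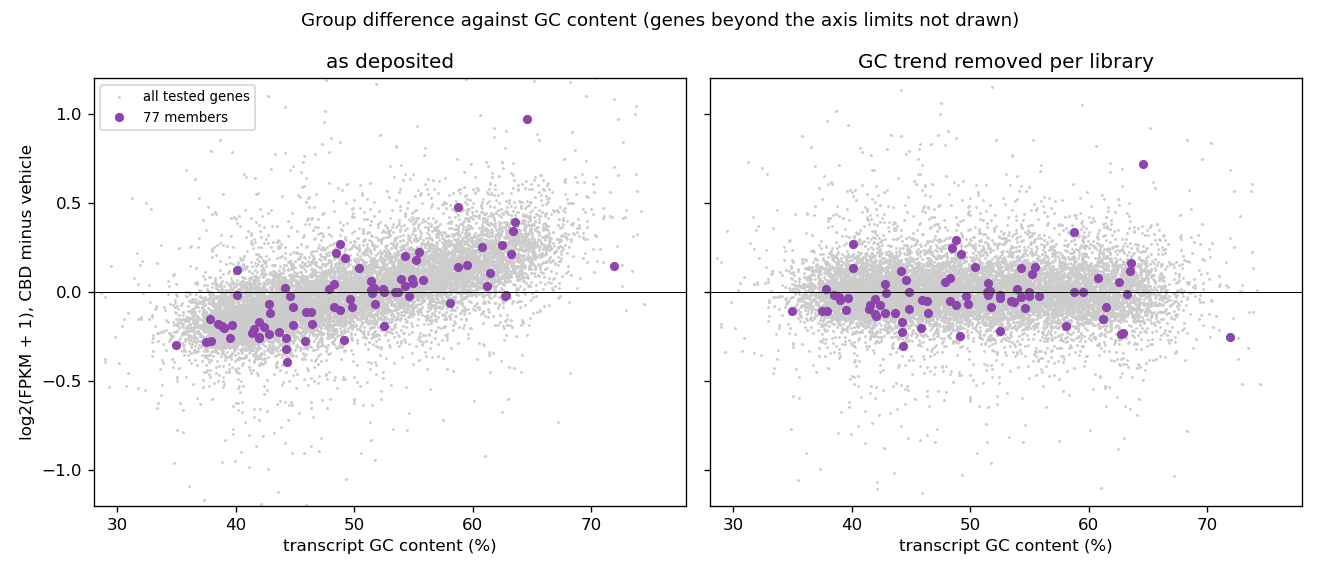
Difference between groups on the log2(FPKM + 1) scale, CBD minus vehicle, against transcript GC content in percent, for the 77 tested members (large points) and all tested genes with a GC value (small points), as deposited and after removal of a loess GC trend from each library. The members follow the slope of all genes in the first panel (Spearman 0.75), and in the second MRPL12 remains highest among them at 0.72.

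The particle's other components were read from lists kept for this purpose, and none of their genes passed the limma test, in which an unadjusted p under 0.05 was reached by 31.4% of genes overall. limma-voom on the recovered fragments called 2 higher and 1 lower of 5 other mitoribosome proteins, 2 lower of 26 assembly factors, 3 lower of 15 translation factors, 2 lower of 10 genome upkeep genes, and 1 higher and 2 lower of 9 regulators, where it called 7.26% and 6.68% of all genes. Among 5 mitoribosome proteins named outside the MRP scheme, 2 were higher and 2 lower at an unadjusted p under 0.05. CHCHD1, a small subunit protein, had 14.6, 16.5 and 15.1 FPKM in vehicle and 19.02, 21.6 and 18.9 in CBD, clear of overlap, with an adjusted p of 0.0608 (limma). PTCD3, which binds RNA on the small subunit, averaged 7.57 ± 0.652 and 6.21 ± 0.356 FPKM (SD, n = 3), and DAP3, a GTP-binding small subunit protein, 17.7 ± 0.690 and 15.8 ± 0.747. Both had all CBD libraries below vehicle.

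The ribosomal RNAs of the particle had overlapping groups. MT-RNR1, the small subunit RNA, measured 290, 419 and 502 FPKM in vehicle and 374, 536 and 475 in CBD. MT-RNR2, the large subunit RNA, measured 1582, 1567 and 1558 FPKM in vehicle and 1376, 1623 and 1729 in CBD. The vehicle values of MT-RNR2 were nearly equal, with the CBD values on either side of them.

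Of 26 assembly factors 1 was higher and 4 were lower at an unadjusted p under 0.05, a share of 19.2% and thus below that of all genes. The lower ones included GTPBP10, a GTPase of large subunit assembly, at 2.82 ± 0.272 FPKM in vehicle and 2.13 ± 0.0335 in CBD (SD, n = 3). FASTKD2, an RNA-binding assembly factor, was another, at 8.26 ± 0.947 and 6.60 ± 0.353. The higher one, RCC1L, averaged 13.6 ± 1.01 and 15.6 ± 0.676 FPKM, with all CBD libraries above vehicle. Its log2 difference was 0.19, and 0.05 with the GC trend removed. Of 15 translation factors 2 were higher and 5 lower, or 46.7%. MTIF2, the initiation factor that brings the first tRNA, averaged 14.4 ± 0.955 FPKM in vehicle and 11.6 ± 0.545 in CBD, with an adjusted p of 0.0613 (limma). MRRF, which recycles ribosomes, averaged 7.94 ± 0.449 and 6.61 ± 0.291, and GFM1, the translocation factor, 10.1 ± 0.804 and 8.23 ± 0.443. All 3 had their CBD libraries below the vehicle libraries. TUFM, which delivers charged tRNA, averaged 96.5 ± 2.96 FPKM in vehicle and 104 ± 1.60 in CBD, the opposite order.

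Of 10 genes for transcription and upkeep of the mitochondrial genome, 0 were higher and 3 lower at an unadjusted p under 0.05, a share close to that of all genes. TWNK, the mitochondrial DNA helicase, averaged 7.73 ± 0.0988 FPKM in vehicle and 6.45 ± 0.364 in CBD, and TFAM, which packages mitochondrial DNA and starts its transcription, 14.5 ± 0.562 and 12.4 ± 0.440. Of 9 nuclear regulators 1 was higher and 4 lower, or 55.6% of a short list. PPRC1, a coactivator of the PGC family, averaged 15.6 ± 0.708 and 12.7 ± 0.487 FPKM, with an adjusted p of 0.0585 (limma). GABPA and GABPB1, the DNA-binding and activating subunits of GABP, averaged 8.17 ± 1.29 and 6.51 ± 0.154 FPKM and 3.20 ± 0.271 and 2.52 ± 0.194. NRF1 averaged 4.42 ± 0.359 and 3.73 ± 0.289 FPKM, with overlapping groups. The rest of the list, YY1, MYC, PPARGC1A and PPARGC1B, had overlapping groups too. Their log2 differences were -0.02, 0.03, -0.0006 and -0.10. ESRRA, a nuclear receptor that drives mitochondrial genes, averaged 37.7 ± 7.02 and 50.6 ± 1.90 FPKM, higher in all CBD libraries. With the GC trend removed, the log2 differences of PPRC1 and TWNK were -0.37 and -0.28, and those of TFAM and GABPA -0.06 and -0.10. ESRRA had 0.43 as deposited, 0.18 with the GC trend removed and 0.28 without vehicle replicate 1. Removing the trend also took GTPBP10 from -0.28 to -0.11, FASTKD2 from -0.28 to -0.12, GFM1 from -0.26 to -0.12, PTCD3 from -0.25 to -0.12, MTIF2 from -0.30 to -0.19, GABPB1 from -0.25 to -0.14 and TUFM from 0.11 to -0.03, while CHCHD1 had 0.43 after it and 0.35 before.

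The cytosolic ribosomal protein genes, the closest family by function, were set beside the members. Their 79 genes summed to 10584 ± 277 FPKM in vehicle and 11560 ± 353 in CBD (SD, n = 3), with the lowest CBD library, 11162, above the highest vehicle library, 10890. Of 78 tested none passed (limma). limma-voom called 13 higher and 1 lower, beside 4 and 8 of the members and 7.26% and 6.68% of all genes. At an unadjusted p under 0.05 in limma 22 were higher and 2 lower, against 15.4% and 16.01% of all genes, 27 lay wholly above vehicle and 6 wholly below, and the median log2 difference was 0.10. The members had 9 and 19, 10 and 22, and -0.02 in the same measures. With the GC trend removed the medians were 0.07 for the cytosolic genes and -0.03 for the members. The difference between the families was not tested.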

How the data were processed

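Total RNA of 6 HOK-16B libraries (3 vehicle, 3 CBD) was read as pairs, per the labels' protocols. The authors deposited 1 table of FPKM values per gene and library. HISAT2 2.0.5 and featureCounts 1.5.0-p3 are named, per the submitters' processing notes, and the build, annotation and strand setting are not given in the sources used here. An FPKM value divides by gene length and library total and does not correct GC-dependent yield.

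All 58735 identifiers were matched to GENCODE 29 (GRCh38), whose exon-union lengths returned whole fragments for 100% of values (tolerance 0.01). A floor of 3 fragments corresponds to 0.126 to 0.153 FPKM at 1 kb, counting error only. No 2 libraries of the same group agreed within sampling noise. log2(FPKM + 1) was fitted with limma 3.58.1 (R 4.3.3, intensity trend, two-sided, Benjamini-Hochberg, threshold 0.05) for 12517 genes with a mean of at least 1 FPKM, with group as the single term. Transcript GC content was the length-weighted mean over annotated transcripts, and its trend was removed by loess (span 0.3). The edgeR and DESeq2 fits planned for recovered fragments were not run, because the deposited values are FPKM and not counts; limma-voom was run on them.

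Members, lists and the rule for named genes were chosen with earlier results of these data known. The rule names the 8 largest positive and the 8 largest negative differences among members without overlap between groups, the 5 highest and 5 lowest levels, members with set roles, and up to 3 genes of each list by adjusted p. MRPS31, MRPL17, MRPL37, TUFM, GABPA, NRF1, YY1, MYC, PPARGC1A and PPARGC1B were named beyond it, after their values were seen. The treatment tag gave each group, the title its replicate number. Tables were made in Python 3.11.15 (pandas 2.3.3, numpy 2.4.6), plots in matplotlib 3.10.9.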

Additional observations from a re-analysis of the deposited data

How the results depend on the processing

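With 3 libraries a group, differences of a few percent lay within the spread between replicates (median coefficient of variation 7.13% in vehicle and 4.56% in CBD). Of 38 named members tested, 21 kept their direction in every alternative run and 17 changed it in at least 1. Alternatives numbered 18, with the edgeR and DESeq2 fits not run, and removing the GC trend without vehicle replicate 1 was added after seeing the data. Replicate numbers did not pair the libraries, as the deviations of same-numbered ones correlated at -0.0027, 0.052 and 0.024. The replicate block gave 0 members in either direction and 0 and 0 of all genes higher and lower, as did the replicate block with the GC trend removed.

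Counts of members called were 0 and 0 (higher, lower) except 2 and 6 at 5 FPKM, 4 and 8 with limma-voom, 2 and 8 with protein-coding genes, and 0 to 8 and 0 to 12 when a library was left out, with 8 and 12 without vehicle replicate 2. All genes called, 32 and 12, became 0 and 0 without a filter on low values, 427 and 305 at 5 FPKM, 2 and 2 with equal sums, 0 and 1 without the intensity trend, 4 and 4 with the GC trend removed, 4 and 3 with vehicle replicate 1 left out as well, 909 and 836 with limma-voom and 728 and 587 with protein-coding genes. Leaving out a library gave 0 to 1267 higher and 0 to 1084 lower, with 59 and 22 without vehicle replicate 1, 1267 and 1084 without vehicle replicate 2 and at most 1 and 0 without any other. The members' median of -0.02 was -0.0549 to -0.0142 when a library was left out, lowest without vehicle replicate 1. The cause was not tested.

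Directions turned as follows (log2). With the GC trend removed, with or without the replicate block, MRPL38 gave -0.0810, MRPL4 -0.0108, MRPL41 -0.2486, MRPL44 0.0020, MRPL53 -0.0222, MRPS12 -0.0012, MRPS2 -0.1502, MRPS28 0.0695, MRPS30 0.0197 and MRPS7 -0.0014. With vehicle replicate 1 left out as well, MRPL11 gave -0.0614, MRPL28 -0.0529, MRPL38 -0.0336, MRPL4 -0.0470, MRPL41 -0.0404, MRPL49 -0.0200, MRPL58 0.0161, MRPS12 -0.0856, MRPS2 -0.1053, MRPS28 0.0812, MRPS30 0.0630 and MRPS7 -0.0427. Median-ratio scaling gave 0.0054 for MRPL58 and equal sums -0.0048 for MRPS7. Leaving out each library gave -0.0549 to 0.0796 for MRPL11, -0.3252 to 0.2198 for MRPL23, -0.0294 to 0.0878 for MRPL46, -0.0307 to 0.1593 for MRPL53, -0.0627 to 0.0452 for MRPL58, -0.1126 to 0.0234 for MRPS18A, -0.0336 to 0.0765 for MRPS2, -0.0607 to 0.0142 for MRPS28 and -0.0399 to 0.0449 for MRPS7. For these 9 the sign rests on single libraries, and MRPL23 moved most.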

Other observations

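GENCODE 29 holds 75 pseudogenes named for these genes, and 55 of them were listed at 0 in every library. A single one, MRPL45P2, reached a mean of 1 FPKM, at 3.53 FPKM in vehicle and 3.0022 in CBD, beside 21.3 FPKM for MRPL45, the protein that ties the ribosome to the inner membrane. MRPS31P4, a transcribed copy of MRPS31, averaged 0.713 FPKM. MRPL34, a conserved large subunit protein, had the second largest positive difference of the family but overlapping groups, at 12.7, 21.7 and 14.4 FPKM in vehicle and 22.5, 24.04 and 21.2 in CBD. MRPL24 had 10.4 FPKM in vehicle replicate 1 and 19.2 to 23.6 FPKM in the other 5 libraries. Both genes were chosen after their values were seen.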
